A study of Homo sapiens with 4 samples.

Results

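Deeply covered sites are the listed bases over which 10 or more sequenced tags lay, whatever their mutation and wherever they fell. They were chosen by that tag number alone, and they numbered 1762 of 166248 sites in PARP1 IP 1 and 2262 of 229782 in PARP1 IP 2. The series sequenced RNA from HK-2 cells, an immortalised human line derived from kidney proximal tubule, in 2 inputs and 2 PARP1 immunoprecipitations made with a Flag antibody. Both IPs share the same cells, antibody and protocol, no treatment or genotype is named, and no control IP is among the 4 samples. The inputs were not analysed here. Whether the IPs are separate cultures is not stated in the labels, and differences between them may be technical.

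PARP1 is a nuclear enzyme that binds damaged DNA and chromatin, builds chains of ADP-ribose on proteins and also binds RNA. In RNA immunoprecipitation the protein is pulled from a lysate and the RNA that stays with it is sequenced, so abundant transcripts are recovered along with bound ones. A listed site is 1 base at which some of the tags differ from the genome by a substitution, a deletion or an insertion. A base covered by many identical tags is therefore not listed, and the mutated fraction is the share of tags over the base that carry the difference.

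The reference sequence around a few of these bases shows the kinds of place they mark. The first group are bases with an insertion or deletion inside a run of 1 repeated letter, with the run in capitals. They lie in MALAT1 (chr11:65500176-65500200, plus strand), NEAT1 (chr11:65425526-65425550, plus), the 3′ UTR of CPM (chr12:68854852-68854876, minus), the coding sequence of PRRC2C (chr1:171541998-171542022, plus) and the 3′ UTR of GFRA1 (chr10:116057723-116057747, minus). The MALAT1, NEAT1, CPM and PRRC2C bases carried insertions and the GFRA1 base a deletion, with an insertion listed at the same base in IP 1 (4 mutated tags of 31). The NEAT1, CPM and GFRA1 bases were deeply covered in both IPs, and the MALAT1 and PRRC2C bases in IP 1.
MALAT1: ctggtgtaatttAAAAAAAActaag
NEAT1: gtgaaggtgtgaTTTTTTcaggagc
CPM: ttAAAAAAAAAAAttggtgctgata
PRRC2C: gagagagggatgAAAAAAAAAAtgc
GFRA1: gAAAAAAAAAAAAcagtttcagaaa

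The second group are coding bases that recurred in both IPs, with the listed base in capitals. PXDN (chr2:1648876-1648900, minus) and FHL2 (chr2:105361292-105361316, minus) carried substitutions. AKR1B1 (chr7:134451574-134451598, minus) carried an insertion at the edge of an annotated exon.
PXDN: gcgggacgagaaCgagagccccatc
FHL2: catcctgtgcccCgactgtgggaaa
AKR1B1: catcgtcagcaaGgtatcgttccgc

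The third group are runs of neighbouring bases, each listed as a deletion with the same number of mutated tags in IP 1, with the run in capitals. GLIS3 (chr9:4125790-4125818, minus) and FGF2 (chr4:122892286-122892310, plus) hold them in coding sequence. AIF1L (chr9:131120464-131120490, plus) holds one in its 3′ UTR. All sequences are from GENCODE release 29 transcripts on GRCh38, read 5′ to 3′ on the strand of the gene.
GLIS3: tctctacagCATGCAACCAGatcagtcct
AIF1L: aagcacaaaTTATCTGCCttaaagggg
FGF2: tacaccagtTGGTATGtggcactga

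The lists held 419675 tags over all sites in IP 1 and 572870 in IP 2. Deeply covered sites were 1.06% of the sites in IP 1 (95% exact interval 1.01 to 1.11) and 0.984% in IP 2 (0.944 to 1.03), and held 24593 and 30924 tags, which is 5.86% and 5.40%. Amplified tags without molecular identifiers are not independent molecules, so the intervals cover counting error only. Tags over listed sites are not the depth of the libraries. Of the proximal tubule markers, 10 of 17 genes had a listed site in each IP, and 1 of the 10 in IP 1 and 2 of the 10 in IP 2 had a deeply covered site, where 5.98% and 6.86% of all listed protein-coding genes had one. These were PAX8, a kidney transcription factor, in both IPs and GGT1, a brush border enzyme, in IP 2. None of the endothelial, immune, podocyte, distal tubule and collecting duct, or fibroblast markers had one, but few of them were listed at all. In IP 1 and IP 2 these were 2 and 3 of 4 endothelial, 1 and 0 of 4 immune and 1 and 2 of 3 podocyte markers. For distal tubule and collecting duct they were 0 and 2 of 4, and for fibroblasts 2 and 1 of 4. With so few listed, the absence of a deeply covered site says little about the cells. Epithelial markers also had none. Of them 5 of 6 in IP 1 and 6 of 6 in IP 2 were listed, with 12 and 31 sites. At the shares of all listed genes given above, so few genes need not hold one.

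Most of these sites lay close to the threshold. The median was 11 tags in both IPs, with 1573 sites (89.3%) at 10 to 14 tags in IP 1 and 2017 (89.2%) in IP 2. Another 132 and 163 sites had 15 to 29 tags, and 57 and 82 had 30 or more. Just outside the threshold, 708 and 797 sites had 9 tags and a median mutated fraction of 22.2% in both IPs. Just inside it, 518 and 678 sites had 10 tags and a median of 20% in both.

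Exons and introns held similar numbers of these sites. Exonic sequence took 866 of 1762 sites in IP 1 (49.1%, interval 46.8 to 51.5) and 990 of 2262 in IP 2 (43.8%, 41.7 to 45.8), against 6.92% and 5.73% of all listed sites. Coding sequence held 399 and 438 sites, which is 22.6% and 19.4% of the deeply covered sites against 2.39% and 1.88% of all sites. The 3′ UTRs held 373 (21.2%) and 454 (20.1%), against 3.04% and 2.58%. The 5′ UTRs held 62 (3.52%) and 56 (2.48%), against 0.417% and 0.321%. In these 3 classes the intervals of the deeply covered and of all sites did not meet in either IP. The intervals treat each base as independent, although neighbouring bases share tags, and all sites include the deeply covered ones. They are therefore a description and not a test.

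Introns remained the largest single class, with 797 sites in IP 1 (45.2%) and 1141 in IP 2 (50.4%), against 62.3% and 55.6% of all sites. Intergenic sequence held 74 (4.20%) and 80 (3.54%), against 21.1% and 26.3%. Antisense bases of genes numbered 25 (1.42%) and 51 (2.25%), against 9.71% and 12.3%. Read the other way, 10.1% of the coding sites in each IP were deeply covered, but 0.769% and 0.893% of the intronic sites and 0.211% and 0.132% of the intergenic ones. Exons of noncoding genes held 32 sites (1.82%) and 42 (1.86%), against 1.07% and 0.938%.

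**Figure D1:**
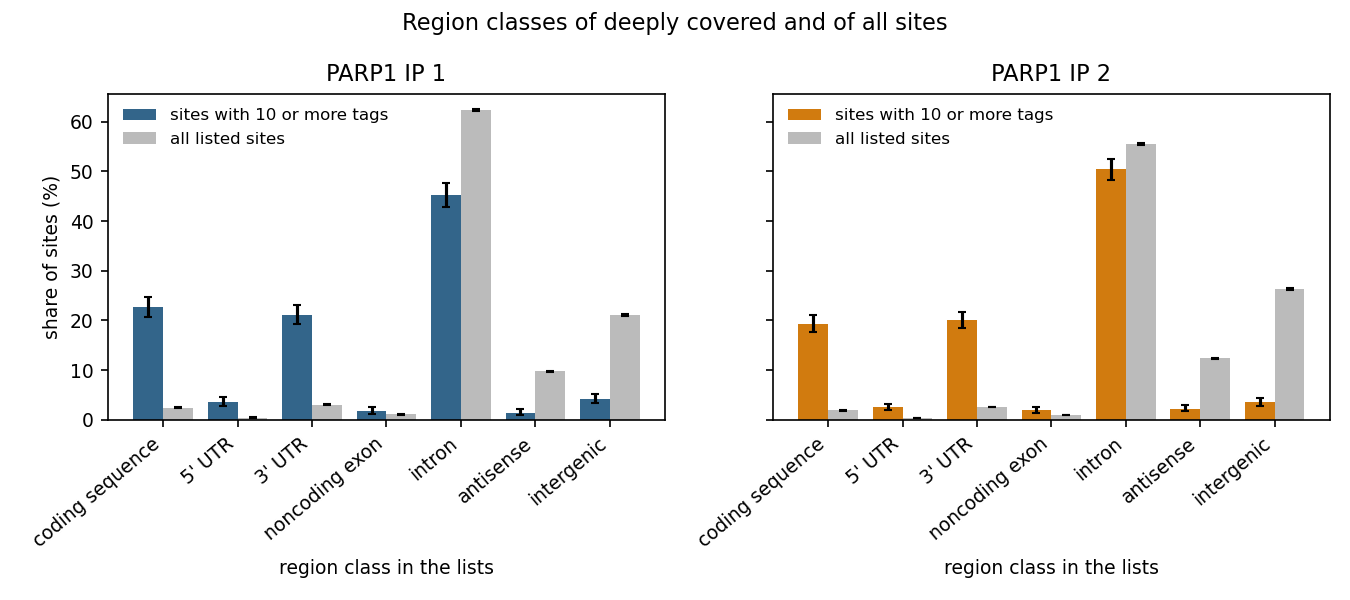
Share of sites in each region class given by the lists (y axis, %), for sites with 10 or more tags (coloured) and all listed sites (grey), in PARP1 IP 1 and IP 2, with exact 95% intervals as bars. Coding sequence and 3′ UTRs take 19.4% to 22.6% of the deeply covered sites and 1.88% to 3.04% of all sites.

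The exonic share was high within each type of mutation. Among deeply covered substitutions it was 42.8% in IP 1 and 39.9% in IP 2, against 5.28% and 4.15% of substitutions under 10 tags. Among deletions it was 51.2% and 44.2%, against 9.62% and 8.84%. Among insertions it was 47.7% and 49.5%, against 10.0% and 8.40%. By depth, exons held 48.3% and 42.5% of the sites with 10 to 14 tags and 56.1% and 57.3% of those with 30 or more. Whether transcript abundance moves with these shares was not tested.

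The mix of mutations differed from that of the lists as a whole. Deletions made up 1226 sites in IP 1 (69.6%) and 1566 in IP 2 (69.2%), against 21.8% and 21% of all listed sites. Substitutions made up 360 (20.4%) and 484 (21.4%), against 72.5% and 73.5%. Insertions made up 176 (9.99%) and 212 (9.37%), against 5.68% and 5.47%. The lists admit these types at different depths of evidence. Substitutions with 2 mutated tags were listed only where 2 tags lay over the base, while deletions with 2 mutated tags were listed up to 14 tags in both IPs and insertions up to 13 and 12. Of the deeply covered deletions, 1113 in IP 1 (90.8%) and 1424 in IP 2 (90.9%) had 2 mutated tags, and each deeply covered substitution had 3 or more.

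The mutated fraction was low at most of these sites. Its median was 18.2% in both IPs, the quartiles were 16.7% and 20%, and the range ran from 2.29% to 100% in IP 1 and from 2.27% to 100% in IP 2. Sites under 10 tags had a median of 100% in both lists. The tag number is the denominator of this fraction and chose the sites, so these values are a description. Most of the sites were deletions with 2 mutated tags of 10 to 14, which give at most 20%. The median, the quartiles and their match between IPs thus follow largely from the listing rule. Deletions had a median of 18.2% in both IPs and insertions 18.2% and 20%, while substitutions had 30.0% and 33.3%.

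**Figure D2:**
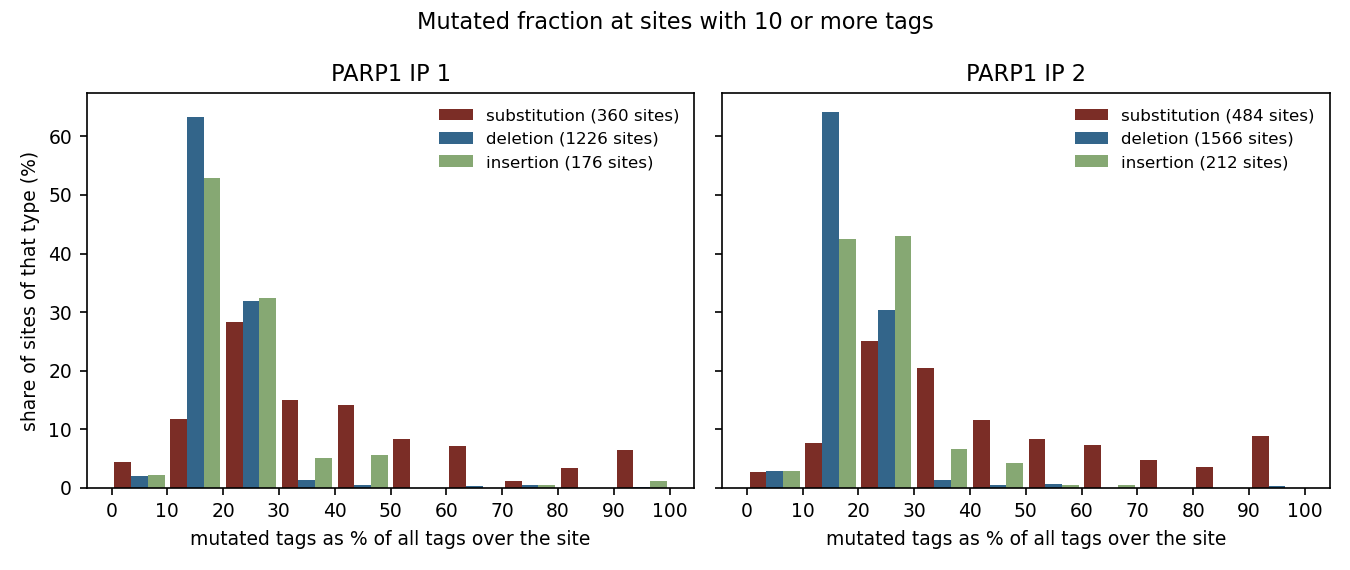
Mutated tags as a percentage of all tags over the site (x axis, bins of 10 points), as the share of the deeply covered sites of each mutation type (y axis, %), in each IP. Deletions and insertions pile up between 10% and 30%, and substitutions reach up to 100%.

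At 109 sites of IP 1 and 174 of IP 2 at least 50% of the tags were mutated. Of these 95 and 158 were substitutions, which is 26.4% and 32.6% of the deeply covered substitutions, 11 and 14 were deletions and 3 and 2 were insertions. At least 90% of the tags were mutated at 27 sites in IP 1 and 48 in IP 2. Every one of 13 tags was mutated at a 3′ UTR base of H2AX, a histone variant that marks DNA breaks once phosphorylated, in IP 1. The same base had 7 of 7 tags mutated in IP 2, where it fell below 10 tags. An intronic base of PFKP, a phosphofructokinase of glycolysis, had 11 of 11 in IP 1 and 5 of 5 in IP 2. In IP 2, exons of the pseudogenes AKR1B1P2 and PABPC1P4 held bases with 17 of 17 and 16 of 16 tags mutated. These resemble expressed genes, and how reads that fit both places were assigned is not given in the sources used here. H2AX, PFKP and the genes of fully mutated bases were picked after their values were seen, except where a gene list holds them.

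Deletions often came as runs of adjacent bases. In IP 1, 687 of 1226 deeply covered deletions (56.0%) sat in 299 runs of at least 2 bases, and in IP 2 856 of 1566 (54.7%) sat in 368 runs. The number of mutated tags was the same along the whole run in 299 of 299 and 365 of 368 runs. Neighbouring deleted bases of 1 run share tags and cannot be counted as separate events, and the longest runs covered 11 bases in both IPs. The GLIS3 run shown above covered 11 coding bases with 2 mutated tags of 11 or 12. The AIF1L run covered 9 bases with 2 mutated tags of 12 to 14, and the FGF2 run 7 bases with 2 of 13 or 14. A run of 6 bases in the 5′ UTR of CCNI, a cyclin, had 13 mutated tags of 17 or 18 in IP 1. A run of 5 bases antisense to ALPK2, an alpha kinase gene, had 10 of 10 tags mutated in IP 2, and the same bases had 5 of 5 or 5 of 6 in IP 1. When sites of the same strand within 100 bases of each other were joined, 1314 loci were left in IP 1 and 1693 in IP 2.

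The letters around exonic sites differed by mutation type. Deletions fell on T at 52.0% of the deeply covered exonic sites with sequence in IP 1 and 52.2% in IP 2, and under 10 tags at 52.0% and 52.9%. Insertions fell in a run of 4 or more of 1 letter, as in the MALAT1 and CPM sequences, at 72.7% and 74.7%, against 59.8% and 61.8% under 10 tags. The median run at deeply covered insertions was 6 bases, and the listed base was A at 59.1% and 59.5%. Substitutions lay in such runs at 10.1% and 9.47%. These shares rest on 66 and 79 insertions, 621 and 688 deletions and 149 and 190 substitutions whose window of 25 bases fits in 1 exon.

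Insertions also lay at the edges of exons. Of deeply covered exonic insertions, 20 of 81 in IP 1 (24.7%, interval 15.8 to 35.5) and 36 of 105 in IP 2 (34.3%, 25.3 to 44.2) were within 2 bases of an annotated exon end. Under 10 tags the shares were 41.5% and 42.5%. Substitutions were there at 3 of 154 and 1 of 193 deeply covered sites and deletions at 6 of 627 and 15 of 690. The deepest such insertion was in HNRNPA2B1, a splicing and RNA transport factor, with 4 mutated tags of 38 in IP 2. It was followed by AGRN, the basement membrane proteoglycan agrin, with 3 of 26 in IP 1. FN1, which encodes fibronectin, had such insertions in IP 2 with 3 of 16 and 2 of 12 and one in IP 1 with 7 of 10. COL4A2, a collagen IV chain, had 3 of 15 in IP 2 and 3 of 14 and 3 of 10 at other exon ends in IP 1.

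The deepest sites belonged to a small set of transcripts. Of the 57 sites with 30 or more tags in IP 1, 8 were on the mitochondrial genome, 10 in NEAT1 and MALAT1, 6 between genes and 33 in 23 other genes. Of the 82 in IP 2 the numbers were 13, 7, 8 and 54 in 25 other genes. The mutated fraction at these sites had a median of 6.45% in IP 1 and 7.50% in IP 2. The highest were 19.4% in IP 1 and 25.6% in IP 2. Intergenic bases at chr1:125180168-125180194 had 125 to 127 tags in IP 1 and 127 to 142 in IP 2, where 142 was the largest tag number of all. ENSG00000278996, a long noncoding RNA gene without a symbol, had an intronic base with 5 mutated tags of 118 in IP 1.

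Each site that the lists gave on the mitochondrial genome was deeply covered, 8 in IP 1 and 13 in IP 2. They had 103 to 131 tags in IP 1 and 35 to 138 in IP 2, with mutated fractions of 2.29% to 4.24% and 2.27% to 11.4%. The deepest in IP 1 were a base antisense to MT-ND5, a subunit of respiratory complex I, with 3 mutated tags of 131, and one in its coding sequence with 3 of 129. In IP 2 the deepest was in MT-CYB, the cytochrome b of complex III, with 4 of 138. MT-CO3, a cytochrome oxidase subunit, had 4 sites in IP 1 and 2 in IP 2. MT-ND4, another complex I subunit, had a pair of neighbouring antisense deletions in IP 1, each with 5 of 118, and 1 antisense site in IP 2. No mitochondrial base was listed in both IPs. Antisense bases were 6 of the 8 and 8 of the 13, whereas on nuclear genes antisense bases made up 1.13% and 1.98% of the deeply covered sites. Both strands of the mitochondrial genome are transcribed from end to end.

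Nuclear long noncoding RNAs were also among the deepest. The list of abundant small and nuclear noncoding RNAs had 19 listed sites in IP 1 and 17 in IP 2. Of these 12 (63.2%) and 9 (52.9%) were deeply covered, and all 12 in IP 1 were from NEAT1 and MALAT1. Among all sites these shares were 1.06% and 0.984%. The list was made of RNAs known to be abundant, so its high shares are a description and not a result about these RNAs. Of the 25 genes only 6 and 4 had any listed site, and 2 and 3 of them had a deeply covered one. Among all genes with a listed site, 791 of 16330 and 969 of 18371 had one. MALAT1, which resides in nuclear speckles, had all 4 of its listed sites deeply covered in IP 1 and 3 of 6 in IP 2. In IP 1 its tags were 128, 114, 105 and 13, with 4, 3, 5 and 2 mutated, the last of them on the antisense strand. In IP 2 they were 124, 54 and 12, with 3, 5 and 2 mutated. None of these bases was deeply covered in both IPs. NEAT1, the scaffold of paraspeckles, had 8 of 10 sites deeply covered in IP 1, with 18 to 109 tags, and 5 of 9 in IP 2, with 56 to 72. Only the insertion at chr11:65425538 was deeply covered in both IPs, with 3 of 85 tags mutated in IP 1 and 3 of 71 in IP 2. RN7SL1, the RNA of the signal recognition particle, had 1 site in IP 2 with 4 mutated of 91 tags and none in IP 1.

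Among nuclear protein-coding genes the deepest bases in IP 1 were in LOXL2, a lysyl oxidase that crosslinks collagen. Its 3 sites had 79, 69 and 69 tags with 3 mutated at each. In IP 2 LOXL2 had 1 deeply covered site, with 10 tags. HSP90AA1, a cytosolic chaperone, reached 75 tags in IP 2, and ITGB1, the integrin beta 1 chain, 73. Neither had a deeply covered site in IP 1, where 15 and 13 sites of these genes were listed.

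Counted by gene, the sites fell in 791 genes in IP 1 and 969 in IP 2, of which 734 and 898 were protein-coding. A single site was held by 432 and 537 of them, and the 10 genes with most sites held 197 sites (11.2%) and 274 (12.1%). Of all protein-coding genes with any listed site, 5.98% had a deeply covered one in IP 1 and 6.86% in IP 2.

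PLCB4, a phospholipase C that relays G protein signals, had the most sites in both IPs, 28 of its 130 listed sites in IP 1 and 50 of 155 in IP 2. It spans chr20:9068763-9481242, and the sites were intronic in 28 of 28 and 49 of 50 cases. They had 10 to 22 tags in IP 1 and 10 to 25 in IP 2, with a median mutated fraction of 18.2% in both. They were spread along the gene, from 6.95 to 336 kb after its start in IP 1 and from 4.67 to 410 kb in IP 2. Only 1 base of the 28 and the 50 was the same in both IPs.

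TRIO, an exchange factor for small GTPases at chr5:14143702-14532128, had 26 of 137 sites in IP 1 and 48 of 153 in IP 2. BICC1, an RNA-binding protein mutated in cystic kidney disease, had 28 of 121 and 22 of 103. SMAD3, which carries TGF-beta signals to the nucleus, had 26 of 72 and 24 of 67, so 36.1% and 35.8% of its listed sites were deeply covered. Of its sites 20 and 22 were intronic, and the tag numbers ran from 10 to 14 in both IPs. No base of TRIO, BICC1 or SMAD3 was deeply covered in both.

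The same pattern of intronic sites without shared bases held for EXT1, a heparan sulfate polymerase, with 16 and 29 sites, and EFNA5, an ephrin ligand, with 12 and 27. It also held for LINC00511, a long noncoding RNA, with 15 and 17, MYLK, the myosin light chain kinase, with 10 and 20, and KIRREL1, an adhesion protein of the nephrin family, with 15 and 11. DCBLD2, a transmembrane receptor-like protein, had 12 and 20 sites and 2 bases in common. LRMDA had 6 of 273 sites in IP 1 and 17 of 339 in IP 2, or 2.20% and 5.01% of the listed sites of a gene of 1129 kb.

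GLIS3 and AIF1L were among the genes with most sites in IP 1 and not in IP 2. GLIS3, a zinc finger transcription factor, had 19 sites in IP 1 and 4 in IP 2, and 11 of the 19 were the single coding run shown above. AIF1L, an actin-binding protein, had 12 sites in IP 1, all in its 3′ UTR and 9 of them in 1 run, and 1 in IP 2. At the level of loci GLIS3 had 7 and 4, and AIF1L 2 and 1.

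**Figure D3:**
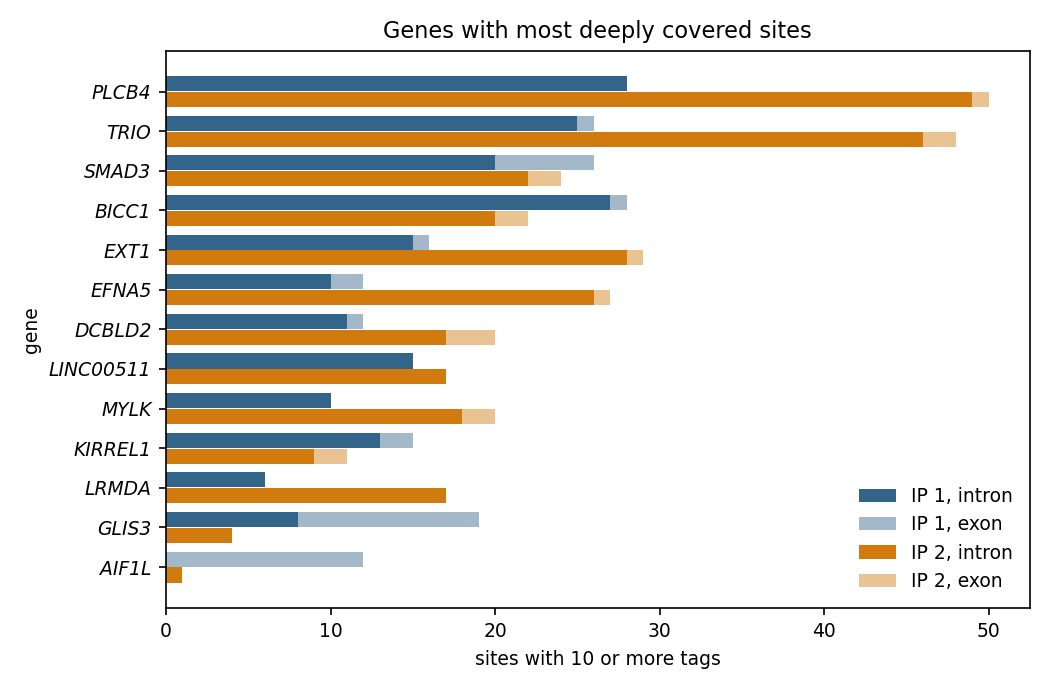
Number of deeply covered sites (x axis) in the 13 genes that were among the 10 with most sites in either IP (y axis), split into introns (full colour) and exons (pale), for IP 1 and IP 2. PLCB4 and TRIO reach 50 and 48 sites in IP 2, and most sites are intronic except in GLIS3 and AIF1L in IP 1.

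Intronic sites leaned towards the start of genes. Of the intronic bases, 491 of 792 in IP 1 (62.0%, interval 58.5 to 65.4) and 713 of 1128 in IP 2 (63.2%, 60.3 to 66.0) lay in the first 50% of the gene, against 53.1% and 53.0% of intronic bases under 10 tags. EXT1 had 13 of 15 and 25 of 28 of its intronic sites there, LINC00511 13 of 15 and 17 of 17, and PLCB4 23 of 28 and 34 of 49. BICC1 had 11 of 27 and 10 of 20. Sites of 1 gene are not independent of each other, and the intervals ignore this.

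At the level of single bases the IPs rarely met. Of the deeply covered sites of IP 1, 78 (4.43%, interval 3.51 to 5.49) were listed in IP 2 at the same base, strand and mutation type, against 4.13% of all sites of IP 1. Of those of IP 2, 90 (3.98%, 3.21 to 4.87) were listed in IP 1, against 2.98%. The first interval holds the value for all sites, and the second lies above it. In the other IP 40 sites were deeply covered too, which is 2.27% of the deeply covered sites of IP 1, where 0.0541% of all sites had this depth in IP 2. It is 1.77% of those of IP 2, where 0.0339% of all sites had it in IP 1. A base can be listed in both only where tags carried a mismatch in both.

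Recurrence followed the type of mutation. Deeply covered substitutions were listed in the other IP at 11.7% (interval 8.54 to 15.4) and 10.7% (8.13 to 13.9), against 4.80% and 3.43% of all substitutions. Insertions recurred at 8.52% (4.85 to 13.7) and 7.55% (4.38 to 12), against 4.10% and 3.08%. Antisense bases recurred at 0 of 25 in IP 1 and 10 of 51 in IP 2 (19.6%, 9.82 to 33.1), and 5 of the 10 were the ALPK2 run. Deletions recurred at 1.71% and 1.40%, against 1.88% and 1.41% of all deletions. Bases with at least 50% of tags mutated recurred at 13.8% (7.91 to 21.7) and 17.8% (12.4 to 24.3), and those below at 3.81% and 2.83%. Of the bases with at least 50%, 95 of 109 and 158 of 174 were substitutions, whereas most deeply covered sites were deletions. This split therefore overlaps the one by mutation type, and a part of its own was not tested. The 17.8% of IP 2 also includes the 5 bases of the ALPK2 run, and the intervals count neighbouring bases as independent.

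**Figure D4:**
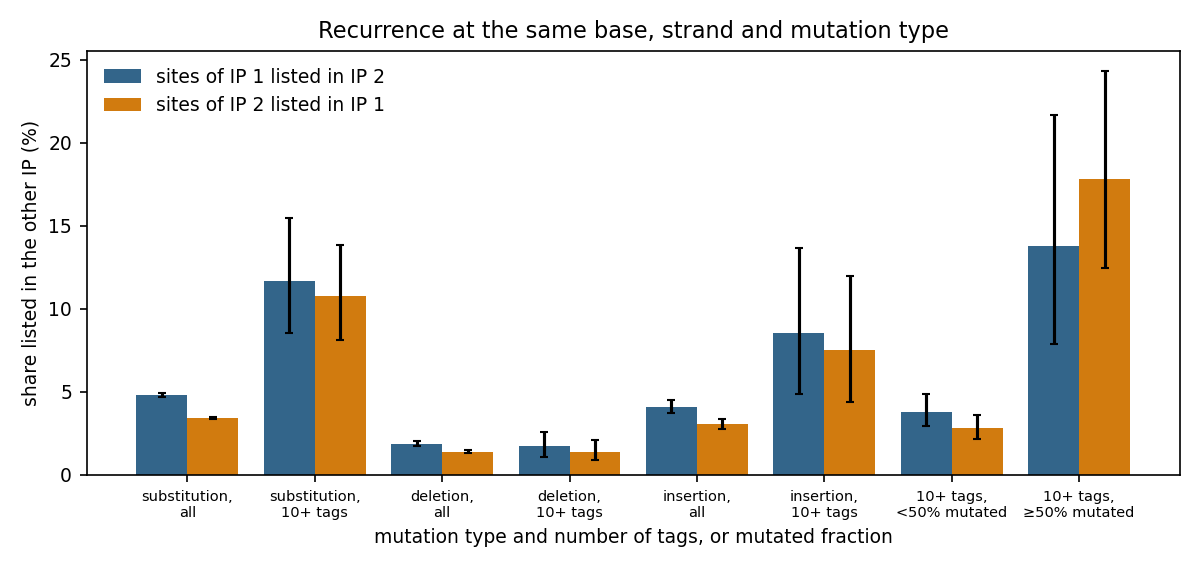
Share of sites listed in the other IP at the same base, strand and mutation type (y axis, %), for all and for deeply covered sites of each mutation type and for deeply covered sites by mutated fraction (x axis), with exact 95% intervals. Deeply covered substitutions and insertions stand above all sites of their type, and deletions do not.

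The 40 bases deeply covered in both IPs were 18 substitutions, 14 deletions and 8 insertions in 34 loci and 28 genes. Introns held 17, coding sequence 8, 3′ UTRs 8, 5′ UTRs 2, a noncoding exon 1 and intergenic sequence 4. The deepest was an intergenic insertion at chr1:125180194 on the plus strand, with 3 mutated tags of 127 in IP 1 and 5 of 142 in IP 2. After the NEAT1 insertion came a pair of neighbouring intronic deletions in RCC1, the chromatin-bound exchange factor for Ran. They had 3 mutated tags of 67 and of 66 in IP 1 and 5 of 63 and of 62 in IP 2. EP400, a chromatin remodeller, had a similar pair of intronic deletions, with 3 of 32 at both bases in IP 1 and 5 of 43 and of 42 in IP 2. The gene and class of these bases are the authors'. Whether smaller RNA genes lie in the introns at the RCC1 and EP400 bases was not examined, so the tags need not come from the host transcripts.

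In the 3′ UTR of GFRA1, a receptor for GDNF, the deletion shown above had 6 mutated tags of 31 in IP 1 and 6 of 25 in IP 2. The CPM insertion, in a gene for a membrane carboxypeptidase, had 3 of 22 and 3 of 30. Both lay in long A runs. Of the genes without a symbol, ENSG00000259132 had intronic substitutions with 5 of 21 and 6 of 21 and with 4 of 18 and 4 of 20, and ENSG00000272822 one with 8 of 23 and 7 of 18. Shared bases in coding sequence included the FHL2 substitution, in a LIM domain protein, with 6 of 10 and 8 of 12, and the PXDN substitution, in the peroxidase that crosslinks collagen IV, with 9 of 11 in each IP. A run of 3 deleted coding bases in VAT1 had 2 of 11 and 2 of 12. Other shared bases lay in MCAM, PRRC2B, HNRNPD, PDXK, ENO1 and PLEKHA4, among others.

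No difference in the mutated fraction between the IPs was called at the 40 bases, but few tags left the test little room to call one. The median absolute difference was 4.70 percentage points, and the largest was 44.3 points, at an intronic base of SNHG20 with 9 of 14 tags mutated in IP 1 and 4 of 20 in IP 2. Fisher's exact test of mutated against other tags, two-sided and adjusted by Benjamini and Hochberg over all 6858 bases listed in both IPs, called 0 of the 40, where 0.0% of the 6858 were called. Unadjusted, 1 of the 40 had p under 0.05, against 0.0583% of the 6858. That was SNHG20, with an exact Fisher p of 0.0137 and an adjusted p of 1. Next were the AKR1B1 insertion, with 7 of 15 in IP 1 and 3 of 17 in IP 2, where the exact p was 0.128, and bases in SMYD3, DCBLD2 and PLEKHA4 with exact p of 0.370, 0.371 and 0.390. With about 10 tags on each side a lone difference of any size cannot pass an adjustment over 6858 bases. The absence of calls therefore does not show that the fractions are equal. The exact intervals of the IPs, which are wide at these tag numbers, overlapped at 40 of 40 bases. Across these bases Spearman's rank correlation was 0.739 for the mutated fraction and 0.776 for the tags. Neighbouring deletions count separately in both values, and the listing rules are common to both IPs. The bases were chosen by their tag number, which is also the denominator of the fraction. Both values are therefore a description, and the correlation of the fractions is not separate from that of the tags.

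**Figure D5:**
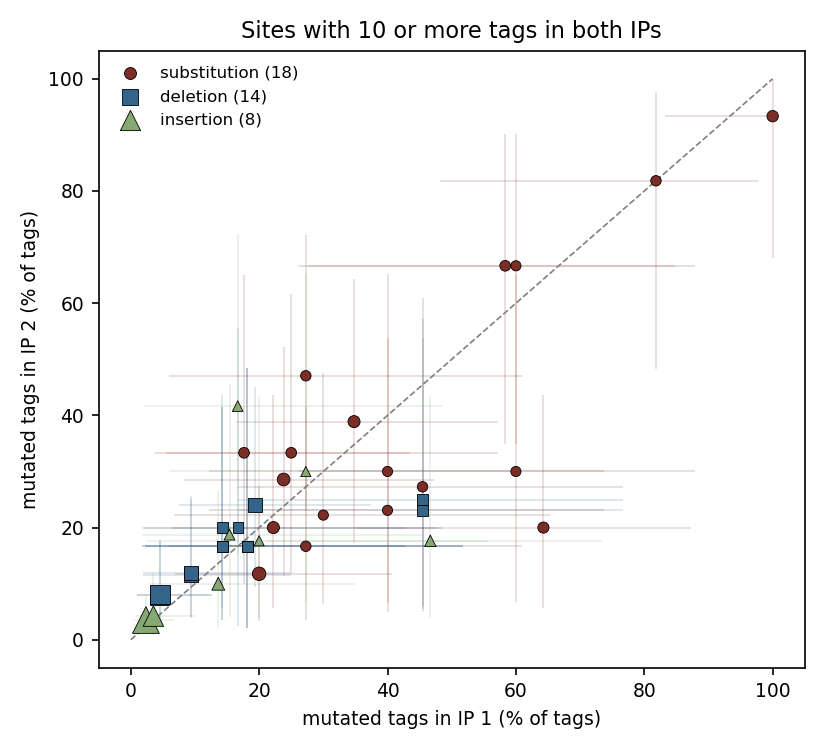
Mutated tags as a percentage of all tags in IP 1 (x axis) and IP 2 (y axis) at the 40 bases with 10 or more tags in both, by mutation type, with exact 95% intervals; larger symbols have more tags and the dashed line marks equal values. Deep insertions and deletions sit at the lower left, and 4 substitutions have at least 50% mutated tags in both IPs.

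At 4 of the 40 bases at least 50% of tags were mutated in both IPs. Besides FHL2 and PXDN they were a 3′ UTR base of MICOS10-NBL1, with 7 of 12 in IP 1 and 8 of 12 in IP 2, and an intergenic base at chr2:132255571, with 20 of 20 and 14 of 15. At SNHG20 and at an intronic base of SMYD3, with 6 of 10 and 3 of 10, the fraction was above 50% in IP 1 alone. At the remaining 34 it was below 50% in both.

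By gene the IPs met far more often than by base. A deeply covered site was present in both IPs for 351 genes, or 2.55% of the 13789 genes with any site in both lists. Of the deeply covered genes in IP 1 they made up 44.4%, where 5.63% of all genes listed in IP 1 had a deeply covered site in IP 2. For IP 2 the share was 36.2%, where 4.16% of all genes listed in IP 2 had one in IP 1. In 323 of the 351 genes no single base was deeply covered in both. These genes held 1013 of the deeply covered sites of IP 1 and 1221 of those of IP 2. Across the 351 genes, the number of such sites in IP 1 and in IP 2 had a Spearman rank correlation of 0.446, and each gene has the same length in both. Of the genes with a deeply covered site, 765 in IP 1 (96.7%) and 919 in IP 2 (94.8%) had some listed site in the other IP. Of all genes with a listed site, 13789 of the 16330 in IP 1 and of the 18371 in IP 2 had one in the other.

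A few genes had deeply covered sites in 1 IP and no listed site in the other, 26 of 791 in IP 1 and 50 of 969 in IP 2. Among all genes with a listed site, 13789 of 16330 in IP 1 and of 18371 in IP 2 were listed in both. In IP 1 these included PCBP1, a poly(C)-binding protein, with 6 deletions at 11 to 13 tags, SOX12, a transcription factor, with 4 sites at 20 to 25 tags, and the pseudogene RPL5P34, with a run of 3 deletions at 26 tags. In IP 2 they included TXNIP, an inhibitor of thioredoxin, with 5 sites at 11 to 18 tags, MT-RNR1, the small mitochondrial ribosomal RNA, with 3 at 67 to 82, and CDK4, a cell cycle kinase, with 3 at 10 to 11. The absence of a site in the other list says only that no base with enough mismatches was listed there.

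Matrix genes, which the series title names, held 28 deeply covered sites in 13 of 50 genes in IP 1 and 51 in 22 genes in IP 2, with 10 genes in both. They were 28.3% and 47.8% of the matrix genes with any listed site, beside 5.98% and 6.86% of all listed protein-coding genes. Of the matrix sites listed, 3.49% and 5.17% were deeply covered, beside 1.06% and 0.984% of all sites. The same shares of all genes and all sites stand beside each list that follows. Lists differ in gene length and number of listed sites, and nothing particular to a list was tested. Exons held 23 of the 28 and 38 of the 51. VCAN, the proteoglycan versican, had 2 sites of up to 49 tags in IP 1 and 6 of up to 41 in IP 2. FN1 had 3 sites in each IP, of up to 52 and 16 tags. AGRN had 3 in each, exonic in IP 1 and intronic in IP 2, and PXDN had the shared base described above.

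Of 20 TGF-beta signalling genes, 15 had a listed site in each IP. A deeply covered site was held by 2 of the 15 in IP 1 (13.3%) and 4 in IP 2 (26.7%), against 5.98% and 6.86% of all listed protein-coding genes. Deeply covered sites in both IPs were found for 2 genes, where 2.55% of all genes listed in both had them. They were SMAD3 and TGFB2, a ligand of the pathway. TGFB2 had 9 of 21 listed sites deeply covered in IP 1 and 14 of 53 in IP 2. TGFB1, the best known ligand, had 3 in IP 2 and none in IP 1, and SKIL, a repressor of SMAD signalling, had 4 and none. The list held 35 and 45 sites in all, or 15.4% and 13.3% of its listed sites against 1.06% and 0.984% of all sites, and most of them were from SMAD3.

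Cytoskeleton and adhesion genes had deeply covered sites in 16 of 30 genes in each IP, 12 of them in both, with 34 and 45 sites. That is 59.3% and 57.1% of the list's genes with any site, against 5.98% and 6.86% of protein-coding genes, and 7.51% and 8.14% of its sites, against 1.06% and 0.984%. AHNAK, a giant scaffold protein, had 1 site in IP 1 and 7 in IP 2, of up to 31 and 54 tags. TPM1, a tropomyosin, had 6 in each, all intronic. MYH9, the heavy chain of nonmuscle myosin, had 2 and 5, and VCL, which encodes vinculin, had 5 and 2. Splicing and RNA-binding factors had sites in 9 of 25 genes in each IP and 5 in both. These were 40.9% and 45% of the list's genes with any site and 11.6% and 8.86% of its sites, against the same shares of all genes and sites. Among them were DDX17 with 2 and 2, HNRNPA2B1 with 1 and 2 and RBM39 with 4 and 1.

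Translation factors and chaperones were uneven between the IPs, with 4 sites in 4 of 24 genes in IP 1 and 26 sites in 13 genes in IP 2. By gene these were 18.2% and 59.1% of those with any site, against 5.98% and 6.86% of protein-coding genes, and by site 3.13% and 16.6%, against 1.06% and 0.984%. HSP90B1, the chaperone of the endoplasmic reticulum, and PABPC1, a poly(A)-binding protein, had 1 site in each. HSP90AA1 had 3 sites in IP 2, each with 4.00% to 4.05% of tags mutated, and EIF3A, a subunit of initiation factor 3, had 2. The difference between the IPs was not tested. Ribosomal protein genes had 4 sites in each IP, in 3 and 4 of 31 genes, and RPL3 was among those in both. They were 12.5% and 20% of the listed ribosomal genes and 6.06% and 9.52% of their sites. Glycolytic and housekeeping genes had 6 and 4 sites, in 27.8% and 21.1% of the listed genes and 3.70% and 1.80% of their sites, with GAPDH, ENO1 and PFKP in both.

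DNA repair and PARP genes, the field in which PARP1 itself is best known, had a share of sites close to that of the lists as a whole. Their 24 genes had 435 and 544 listed sites, of which 5 in each IP were deeply covered, or 1.15% and 0.919%, against 1.06% and 0.984% of all sites. By gene these were 2 of 24 (8.33%) and 3 of 24 (12.5%), against 5.98% and 6.86% of protein-coding genes. PRKDC, the catalytic subunit of a kinase of DNA end joining, had 1 and 2, and FANCA, of the crosslink repair pathway, had 4 and none. BRCA1 had none and 2, both intronic, and PARP14 none and 1. Histone genes had 2 sites in 2 of 15 genes in IP 1 and 8 in 5 in IP 2, or 5.71% and 13.3% of their listed sites against 1.06% and 0.984%. Only 10 and 11 histone genes had a listed site, and 20% and 45.5% of them had a deeply covered one, against 5.98% and 6.86% of protein-coding genes. No histone gene had one in both IPs, where 2.55% of all genes listed in both did. With so few genes listed this absence says little.

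Genes with common fragile sites, which are very long, had low shares of deeply covered sites. Their 14 genes had 1432 and 1971 listed sites, of which 2 and 3 were deeply covered (0.140% and 0.152%), against 1.06% and 0.984% of all sites. By gene they were 1 of 14 (7.14%) and 2 of 14 (14.3%). WWOX, a tumour suppressor gene within a fragile site, had 2 of 460 in IP 2 and none of 384 in IP 1. SMYD3, a lysine methyltransferase gene, had 2 of 274 and 1 of 308.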

How the data were processed

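RNA was sequenced from HK-2 cells in 2 PARP1 IPs and 2 inputs, and 1 site list for each IP was used. The submitters' processing notes name the tools bcl2fastq and TopHat2 and the build GRCh38. Their versions, the site caller and its thresholds, and any duplicate removal were not given in the sources used here. Per the file headers, the deposited values are counts of tags over a base (k) and of mutated tags (m), the authors' FDR for each base, which is an adjusted p-value, and a deposited score that equals m. Region classes and gene identifiers are the authors'.

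Members were the bases with k of at least 10, and the mutated fraction was m/k. The members and gene lists were chosen with earlier results of these data known. Positions count from 1. Gene spans, exon ends and sequences came from GENCODE release 29, for which 787 of 791 and 966 of 969 gene identifiers matched. Of the gene lists, 1 histone gene (H3C2) had no match. Sites were shared where base, strand and mutation type were equal. Fisher's exact test (scipy 1.17.1) compared m with k minus m and was adjusted over all shared bases at a threshold of 0.05. It was also run on simulated data with many large planted differences, which does not show what it can detect at the shared bases. A few genes are not reported here. Intervals are exact (Clopper-Pearson). Tables were handled with pandas 2.3.3 and numpy 2.4.6 in Python 3.11.15.

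Genes named were, for each IP, the 10 with most sites, those of the 10 deepest sites and the 3 with most sites and none in the other IP. Also named were the deepest shared bases overall and by class and type, the 5 smallest Fisher p-values, and up to 4 genes of each list. The genes named for fully mutated bases, deletion runs, exon edges and sites of 30 or more tags, the other shared bases, and the sequences of MALAT1, PRRC2C, PXDN, FHL2, GLIS3, AIF1L and FGF2 were picked with their values already known. Alternatives were other tag minimums, a stricter FDR, substitutions only, 1 site per locus, no mitochondrial sites, looser matching, Holm adjustment and each IP alone, with 4 or more mutated tags added after the data were seen.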

Additional observations from a re-analysis of the deposited data

How the results depend on the processing

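Values are means of the 2 IPs unless they are counts of genes or sites. No paired analysis was possible because the numbers pair each IP with an input and the inputs were not analysed here. Taking 8 or more tags changed the percent of sites that qualify from 1.02% to 2.05%, the exonic share from 46.5% to 38.6%, the median mutated fraction from 18.2% to 22.2% and the genes in both IPs from 351 to 684. With 20 or more tags these were 0.0589%, 58.8%, 11.1% and 19, and 10.9% of sites recurred instead of 4.20%. With an FDR of at most 0.001, 1.09% of sites qualified, the median fraction was 33.3%, 9.59% recurred and 81 genes were in both. With substitutions only, the values were 0.293%, 41.3% exonic, 31.7%, 11.2% and 70 genes. With 1 site per locus the median fraction was 19.1% and recurrence 4.71%. Matching bases on either strand gave 5.02%, and matching within 10 bases 4.95%. With 4 or more mutated tags, added after the data were seen, 4.57% of sites qualified, the median fraction was 40%, 7.42% recurred and 52 genes were in both. The exonic share ranged from 38.6% to 58.8% over these settings. Each IP alone gave 0.984% to 1.06% qualifying, 43.8% to 49.1% exonic, a median of 18.2% and 3.98% to 4.43% recurring. Fisher's test called 0 shared bases in each alternative run, with the same limit from low tag numbers. Without mitochondrial sites the exonic share was 46.5% and 348 genes were in both. Low tag numbers limit the mutated fraction at most sites, where 1 tag moves it by up to 10 points.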
